A study of Drosophila melanogaster with 24 samples.

Results

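In the developing wing of Drosophila, 335 of the 15473 transcripts on the array stayed abundant and nearly level from the wandering larva (L3) to 36 h after puparium formation (APF). They were chosen by their own values. The log2 intensity of each transcript was averaged over the arrays of a stage, and a member had 6 stage means that averaged at least 12, a linear intensity of 4096, with less than 0.35 on the log2 scale between its highest and its lowest stage mean, a 1.275-fold difference. Because the stage means chose the members, every level and stage difference below is a description. Of the 3885 transcripts that met the limit on abundance, the other 3550 were not steady, and a further 527 steady transcripts lay under that limit. Of those 527, 393 averaged between 4 and 6, near the lower end of the scale.

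Wings were dissected from w1118;+;+ flies (Bloomington Stock #3605), a laboratory strain with white eyes that carried no transgene, at wandering L3 and in the pupa at 2 h, 6 h, 18 h, 24 h and 36 h APF. Each sample held the total RNA of 10 wings, amplified linearly from a T7 promoter, labelled with Cy3 and hybridized alone on a 4-plex NimbleGen array. There were 4 independent samples per stage and 3 at 36 h APF, and 1 more array carried a mix of the RNA of 36 h APF samples B and D and was left out of the choice. The samples of L3, 2 h and 6 h APF still held the presumptive notum, the body wall next to the wing, which was absent from those of 18 h APF and later. For 14 arrays a stage field of the labels differed from the stage in title and description, and the title was used. In such bulk samples fewer cells of a type and less RNA per cell cannot be told apart.

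During these hours the larval disc, a folded sheet of dividing cells, everts into a bilayered wing, the cells leave the cell cycle, and each builds a hair and later a cuticle. The steroid ecdysone drives these steps by switching large sets of genes on and off. Beside such regulated genes every cell transcribes a set of constitutive genes for protein synthesis, protein turnover, energy supply and the cytoskeleton, and transcripts with level signal are the ones from which reference genes for expression studies are usually picked. Whether the 335 members belong to those classes could not be read from the files, which give FlyBase transcript identifiers without gene names. A RefSeq gene table of Release 6 tied 2 members to genes through its synonyms, each to a pair of genes, and left 333 unnamed, so that gene lists, markers of the wing and sequences were not analysed here.

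The members with a name were FBtr0086654 and FBtr0071672, singled out after their values had been seen. The gene table lists each under 2 genes, as transcripts with more than 1 reading frame would be. FBtr0086654, listed under Gint3 (GDI interacting protein 3) and CG42306, averaged 13.36, with the narrow stage range of 0.16. Its log2 intensities were 13.21, 13.24, 13.31 and 13.35 at L3, then 13.32, 13.56, 13.47 and 13.22 at 2 h, 13.42, 13.45, 13.44 and 13.44 at 6 h, 13.51, 13.35, 13.34 and 13.27 at 18 h, 13.32, 13.26, 13.46 and 13.43 at 24 h, and 13.43, 13.30 and 13.28 at 36 h APF. The arrays of every stage overlapped those of every other stage except at 6 h APF, where all 4 arrays lay above the 4 of L3.

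FBtr0071672 is listed under CG42496 and Ppcdc, which encodes phosphopantothenoylcysteine decarboxylase, an enzyme of coenzyme A synthesis. It averaged 12.75 with a stage range of 0.31. It read 12.58, 12.59, 12.48 and 12.80 at L3, 12.95, 12.31, 12.78 and 12.62 at 2 h, 12.84, 12.49, 12.96 and 12.69 at 6 h, 12.88, 12.51, 12.67 and 12.63 at 18 h, 12.86, 13.15, 13.12 and 12.57 at 24 h, and 12.80, 13.10 and 12.79 at 36 h APF. All stages overlapped, and the arrays within each stage but 36 h APF spread by more than the stage means did. Of the 27 transcripts on the array that the table ties to several genes, 14 were abundant, and these 2 were the only steady ones among them; the other 12 had stage ranges between 0.42 and 1.40. The steadiness of FBtr0071672 depended on the normalization. After cyclic loess between the arrays its stage range was 0.56, past the limit, while that of FBtr0086654 was 0.26. None of the 8 abundant transcripts tied to 1 gene was a member. Dyrk3, a protein kinase gene, came closest with a stage range of 0.37, and Uba1, the gene of the ubiquitin-activating enzyme, was farthest at 1.63.

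The higher the signal, the larger was the share of steady transcripts. Between averages of 12 and 13, 61 of 1803 transcripts were steady (3.38%), and the share was 5.80% of 1310 between 13 and 14, 15.9% of 617 between 14 and 15, and 60.1% of 138 between 15 and 15.5. All 17 transcripts above 15.5 were members. Dim transcripts were steady less often than that, with 0.532% of 2443 between 8 and 10. Between 4 and 6, however, 16.4% of 2393 were steady too, near the lowest values on the arrays (4.07 to 4.26). Members therefore averaged higher than the rest of the abundant transcripts, with a median of 14.34, against 13.02 for the other 3550.

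**Figure D1:**
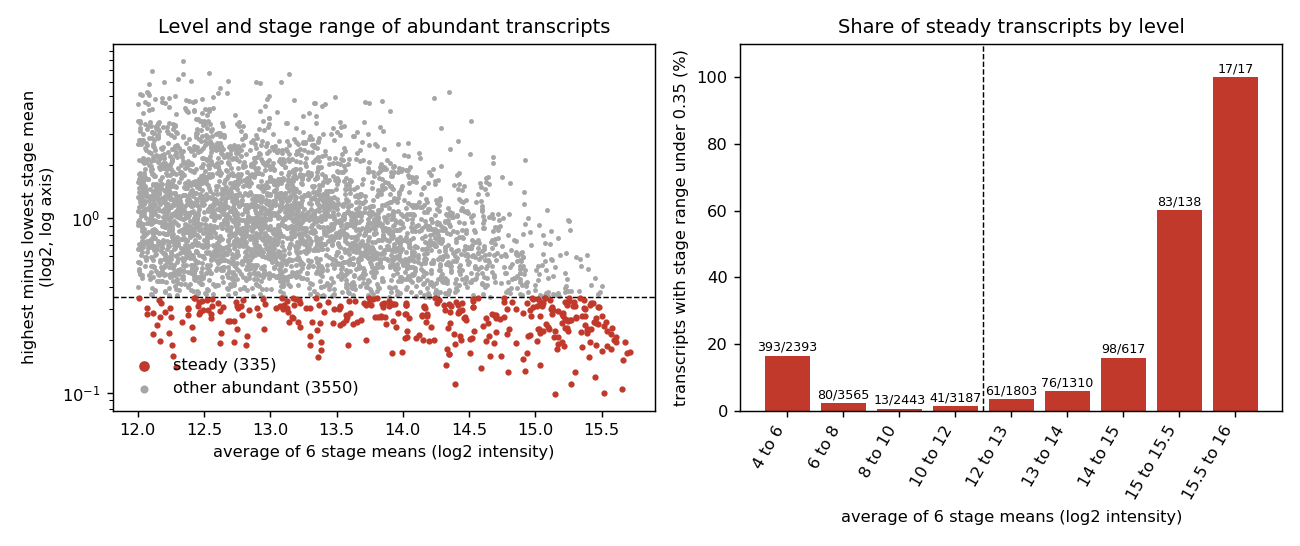
Left, the average of the 6 stage means (log2 intensity) of every abundant transcript against the difference between its highest and lowest stage mean (log2, log axis), with the 335 steady transcripts in red, the other 3550 in grey and the limit of 0.35 dashed. Right, the percentage of transcripts in each range of average that had a stage range under 0.35, with counts above the bars and the abundance limit dashed; it was 3.38% between 12 and 13 and 60.1% between 15 and 15.5.

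The brightest value on an array lay between 15.42 and 15.97 for all 24 arrays, so the top members sat close to the upper end of the scale. Of the members, 114 (34.0%) averaged within 1 log2 unit of the mean array maximum, against 99 (2.79%) of the other abundant transcripts. The files hold no saturation mark, and the part of that upper end in the steadiness of bright transcripts was not tested. Members also differed in spread between replicates, a measure the rule did not compare. The median within-stage SD was 0.16 for members and 0.19 for other transcripts between 12 and 13, 0.13 and 0.16 between 13 and 14, 0.11 and 0.14 between 14 and 15, and 0.11 and 0.13 above 15. A smaller spread between arrays also makes a small stage range more likely, so these values are not independent of the choice. Over all members the SD ran from 0.069 to 0.31 with a median of 0.12, against a median of 0.17 for the other abundant transcripts.

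The 3 members of highest average were FBtr0082346 (15.72), FBtr0086678 (15.69) and FBtr0081639 (15.67). FBtr0082346 read 15.73, 15.84, 15.81 and 15.71 at L3, 15.55, 15.83, 15.63 and 15.38 at 2 h, 15.77, 15.79, 15.73 and 15.58 at 6 h, 15.69, 15.73, 15.81 and 15.78 at 18 h, 15.77, 15.68, 15.70 and 15.80 at 24 h, and 15.78, 15.69 and 15.68 at 36 h APF. Its lowest value was that of 2 h APF sample E, which was also the lowest array for FBtr0086678 (15.28) and FBtr0081639 (15.37). Without that array the values ran from 15.54 to 15.84 in FBtr0086678 and from 15.48 to 15.85 in FBtr0081639, and no stage stood apart from the others.

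The 3 narrowest stage ranges belonged to FBtr0073044 (0.098), FBtr0081512 (0.0998) and FBtr0086029 (0.105), whose averages were 15.15, 15.52 and 15.65. FBtr0073044 read 15.23, 15.15, 15.18 and 15.19 at L3, 15.35, 15.05, 15.20 and 14.96 at 2 h, 15.11, 15.14, 15.17 and 15.20 at 6 h, 15.15, 15.10, 15.20 and 15.22 at 18 h, 15.12, 15.20, 15.21 and 15.14 at 24 h, and 15.12, 15.003 and 15.14 at 36 h APF. Its highest and its lowest array were both from 2 h APF, so replicates of a stage differed by more than any pair of stage means. In FBtr0081512 the 2 h APF arrays read 15.59, 15.56, 15.56 and 15.19, and in FBtr0086029 they read 15.66, 15.69, 15.75 and 15.37, with sample E again the lowest.

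**Figure D2:**
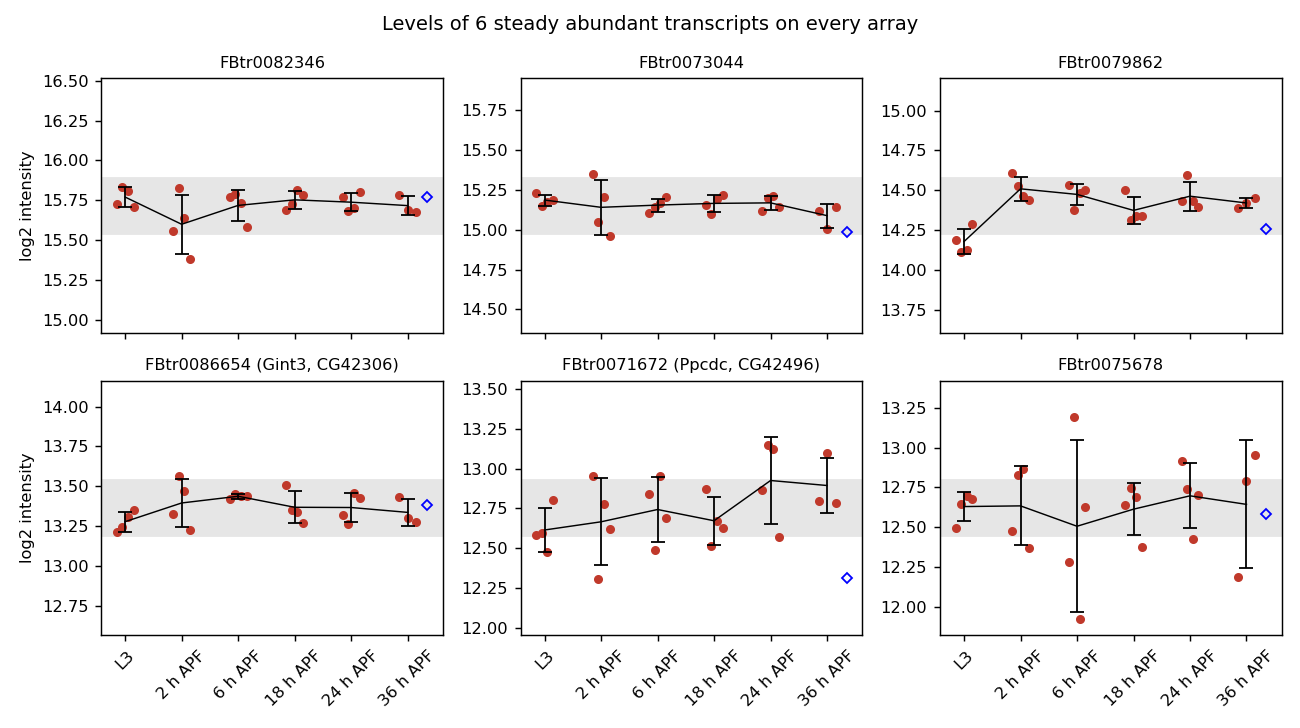
Log2 intensity of 6 members on every array, by stage from L3 to 36 h APF. Red points are samples, black bars the mean ± SD of a stage, blue diamonds the pooled array and the grey band 0.35 centred on the average; in FBtr0075678 single arrays at 6 h APF ran from 11.92 to 13.19 while the stage means differed by 0.19.

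The mean over all 335 members was nearly the same at each stage, at 14.15 ± 0.019 at L3, 14.12 ± 0.067 at 2 h, 14.15 ± 0.018 at 6 h, 14.15 ± 0.016 at 18 h, 14.20 ± 0.022 at 24 h and 14.14 ± 0.0083 at 36 h APF (SD over arrays, n = 4 and n = 3 at 36 h). Within the limit of 0.35 the members differed in which stage was highest and which was lowest. The highest stage mean fell at L3 in 56 members, at 2 h in 36, at 6 h in 62, at 18 h in 39, at 24 h in 74 and at 36 h APF in 68. The lowest fell at the same stages in 65, 81, 66, 48, 12 and 63 members. The 24 h APF mean was thus seldom the lowest, and its median difference from a member's own average was 0.051, against -0.033 at 2 h APF and between -0.020 and 0.0033 at the other 4 stages. These small offsets depended on the normalization. After cyclic loess between the arrays the median difference was -0.0012 at 24 h, 0.074 at 6 h, 0.032 at 36 h and -0.056 at 2 h APF.

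The low values at 2 h APF lay in the brightest members. Among the 100 members that averaged over 15, the 2 h APF mean was the lowest in 49, with a median difference of -0.091 from the average, whereas it was the lowest in 7 of the 61 members between 12 and 13. Sample E moved with this. Its median difference from the other 2 h APF arrays was -0.23 over the bright members, and its brightest value was 15.42, against 15.75 to 15.84 on the other 2 h arrays. Without sample E the 2 h APF mean was the lowest in 34 of the 100, with a median difference of -0.039. Without sample B, which read 0.17 higher than the other arrays of the stage over these members, the count was 64 and the median difference -0.12.

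limma's moderated test of each stage against L3, adjusted over all transcripts by Benjamini-Hochberg, was given only to show what so small a stage range left to call. At 2 h APF 8 members passed an adjusted p of 0.05, where 21.4% of all transcripts passed. At 6 h APF 27 members passed (background 42.8%), at 18 h 8 (background 27.3%), at 24 h 20 (background 35.3%) and at 36 h APF 32 (background 60.8%). Between the 5 stages from 2 to 36 h APF, limma's F test called 19 members (background 69.4%). The choice by stage means fixed these low counts, and nothing is read from them. Of the members, 72 passed at 1 stage or more (background 76.2%), and 263 at none. All 5 comparisons use the same L3 arrays.

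The members nearest to a change at these limits passed at 3 or more stages, and were singled out after their values had been seen. FBtr0079862, which passed at 4 stages, read 14.19, 14.11, 14.12 and 14.29 at L3, 14.61, 14.52, 14.46 and 14.44 at 2 h, 14.54, 14.38, 14.48 and 14.50 at 6 h, 14.50, 14.32, 14.34 and 14.34 at 18 h, 14.43, 14.60, 14.43 and 14.39 at 24 h, and 14.39, 14.42 and 14.45 at 36 h APF. Every array of a later sample lay above all 4 L3 arrays, and the log2 fold change over L3 was 0.33 ± 0.083 at 2 h, 0.30 ± 0.083 at 6 h, 0.20 ± 0.083 at 18 h, 0.29 ± 0.083 at 24 h and 0.24 ± 0.090 at 36 h APF (SE). FBtr0081906 was 0.28 ± 0.091 higher at 6 h, 0.28 ± 0.091 at 24 h and 0.33 ± 0.099 at 36 h APF than at L3, and FBtr0080065 fell by 0.32 ± 0.097 at 6 h, 0.30 ± 0.097 at 18 h and 0.28 ± 0.11 at 36 h APF. A transcript could thus be steady by the rule while its later samples all lay above those of L3. With its 95% limits, the fold change against L3 was under 1.5-fold in either direction at all 5 later stages for 316 members, and under 2-fold for all 335. Of all 15473 transcripts, 833 and 4356 met these bounds. The choice by stage means set this contrast, and nothing is read from it. These bounds rest on the stage means that chose the members, and describe only how closely the arrays fix them.

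The tightest replicates were seen in FBtr0085443, FBtr0073855 and FBtr0080532, each with a within-stage SD of 0.069 or 0.070. FBtr0073855 read 14.43, 14.31, 14.41 and 14.52 at L3, 14.26, 14.15, 14.13 and 14.26 at 2 h, 14.15, 14.22, 14.31 and 14.28 at 6 h, 14.43, 14.52, 14.52 and 14.45 at 18 h, 14.49, 14.53, 14.47 and 14.47 at 24 h, and 14.19, 14.36 and 14.37 at 36 h APF. All arrays of 18 and 24 h APF lay above all those of 2 and 6 h APF, within a stage range of 0.29. At the other end stood FBtr0075678, with a within-stage SD of 0.31, FBtr0083720 with 0.28 and FBtr0084121 with 0.28, at averages of 12.62, 12.38 and 12.46.

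FBtr0075678 read 12.50, 12.65, 12.70 and 12.68 at L3, 12.48, 12.83, 12.87 and 12.37 at 2 h, 12.28, 13.19, 11.92 and 12.63 at 6 h, 12.64, 12.75, 12.69 and 12.38 at 18 h, 12.92, 12.74, 12.43 and 12.71 at 24 h, and 12.19, 12.79 and 12.95 at 36 h APF. Its stage means differed by only 0.19, with high and low arrays on both sides of the mean at most stages. The range over all 23 arrays, of which the limited stage range is a part, was 0.28 to 1.27 over the members with a median of 0.56 (1.47-fold). Ranked within each array by the same intensities, members had a lowest rank over the arrays with a median of 94.5% and a highest rank with a median of 97.3% of the way up. High ranks follow in part from the limit on abundance. Within the top 5% of every array stayed 158 members, and so did 150 of the 3550 other abundant transcripts. Not all ranks were that high or close, and they ran from 72.9% to 86.7% in FBtr0075678 and from 70.5% to 84.1% in FBtr0083720.

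The arrays lay on 6 slides of 4, and the rule named neither slide nor position on the slide. The tests below used the same arrays as the choice, however, and no slide held all 6 stages. A shift on a slide could thus move stage means and keep a transcript from being chosen. Low counts among members are therefore not independent of the choice. In limma's F test with stage in the fit, 0 of the 335 members passed for slide at an adjusted p of 0.05 (background 0.0259%) and 0 for position (background 0%), and at an unadjusted p under 0.05 there were 2 members (0.597%) for slide, against 2.20% of the other abundant transcripts and 10.9% of all transcripts, and 3 members (0.896%) for position, against 0.479% of the other abundant and 2.03% of all transcripts. Between the arrays of 1 slide, each from another stage and each part of the choice, the median range of a member was 0.26 to 0.32, and it stayed under 0.35 in 59.1% to 73.7% of members. The slide with 3 arrays in this count also held the pooled array.

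**Figure D3:**
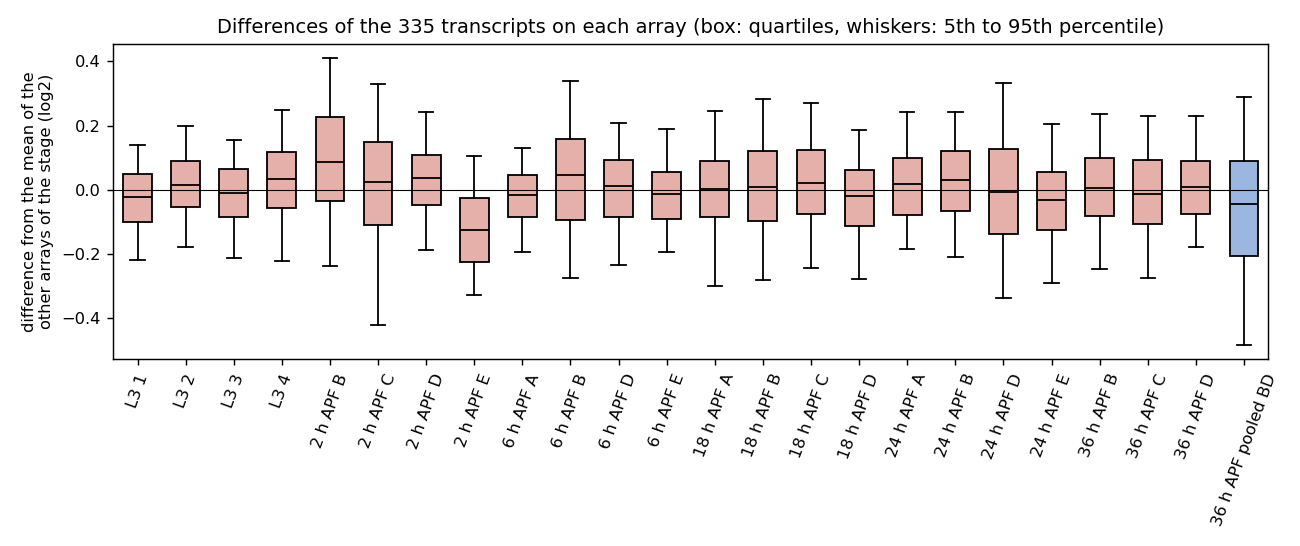
Difference of the 335 members on each array from the mean of the other arrays of the same stage, and for the pooled array from the mean of the 3 arrays of 36 h APF (log2; box, quartiles with the median; whiskers, 5th to 95th percentile). Most medians lay near 0, with 2 h APF sample E at -0.12 and sample B at 0.085.

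Single arrays differed in how closely the members kept to their stage. On 2 h APF sample C 37 members lay 0.35 or more from the mean of the other 2 h arrays, and on sample B 35 members, against 0 to 6 members on the L3 arrays. The count was 28 on 24 h APF sample D, 23 on 6 h APF sample B and at most 17 on the other arrays of the choice. The other abundant transcripts were that far off in 23.4% on sample C and in 14.9% on sample B of 2 h APF, and in 0.225% to 4.62% on the L3 arrays. To read an array that had no part in the choice, the members were chosen again 23 times, each time without 1 array. Between 304 and 378 transcripts were chosen, and on the array left out 92.9% to 99.4% of them lay within 0.35 of their average, except on 36 h APF sample C with 89.8% and on 2 h APF sample C with 77.2% (292 of 378). The other abundant transcripts, which the same choice had set aside as not steady, did so in 41.0% to 76.3%. The band reached 0.35 to either side of the average, wider than the rule's limit between stage means. Other arrays of the same stage had helped to choose, and all arrays were normalized together. These shares thus describe how closely 1 array followed the arrays that chose, and do not test steadiness over stages. The share of chosen transcripts was lowest on 2 h APF sample C.

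**Figure D4:**
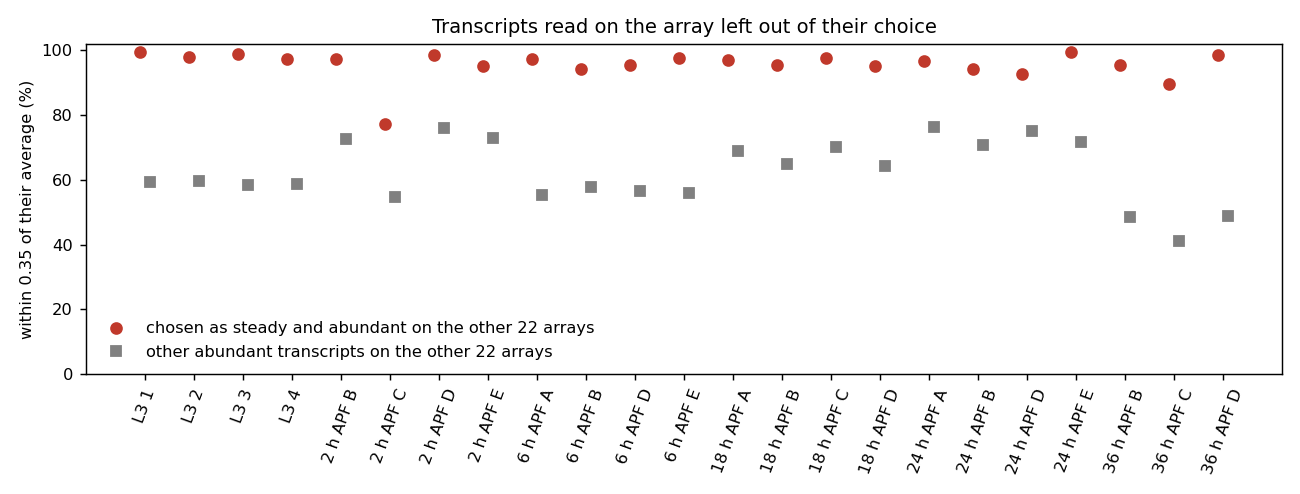
Percentage of transcripts within 0.35 (log2) of the average of their stage means on an array left out of the choice, for those chosen as steady and abundant on the other 22 arrays (red circles) and for the other abundant transcripts (grey squares). The red circles lay at 89.8% or higher on all arrays but 2 h APF sample C (77.2%).

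The pooled array was a further reading that had no part in the choice. Over the members its log2 intensity minus the mean of 36 h APF samples B and D, whose RNA it carried, had a median of -0.054 and ran from -0.71 to 0.50. The 2 members of largest difference were FBtr0079719, at 14.23 on the pooled array against 14.89 on B and 14.99 on D, and FBtr0084765, at 11.51 against 12.23 and 12.17. Both read lower there than on any of the 23 other arrays, where the lowest values were 14.27 in FBtr0079719 and 11.82 in FBtr0084765. From the mean of all 3 arrays of 36 h APF, 43 members (12.8%) differed by 0.35 or more on the pooled array, more than on any other array, as did 26.8% of the other abundant transcripts.

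At the edge of the rule, the members of lowest average were FBtr0072813 (12.01), FBtr0072287 (12.07) and FBtr0077576 (12.07), and the steady transcripts just below 12 were FBtr0088251 (11.95), FBtr0081148 (11.95) and FBtr0084791 (11.94). The widest stage ranges inside were 0.3495 in FBtr0087517 and 0.349 in FBtr0070800 and FBtr0087088, and the narrowest outside were 0.351 in FBtr0075819, FBtr0075944 and FBtr0075393. Across the range limit these transcripts differed by far less than the within-stage SD. The transcripts on either side of the average limit had within-stage SDs of 0.105 to 0.175. This SD is the spread between single arrays, not the uncertainty of an average or of a stage mean. The widest member inside, FBtr0087517, read 13.001, 12.825, 12.898 and 12.97 at 2 h APF, its lowest stage. At L3 it read 12.95, 13.02, 12.96 and 13.12, and at 24 h APF, its highest stage, 13.21, 13.61, 13.13 and 13.14.

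Membership also depended on the normalization. After cyclic loess between the arrays 222 of the 335 members (66.3%) still met both limits, among them 19 of the 61 between 12 and 13 (31.1%), 43 of 76 between 13 and 14 (56.6%), 81 of 98 between 14 and 15 (82.7%) and 79 of 100 above 15 (79.0%). With each array left out in turn 196 members (58.5%) met the limits every time. A core of 144 members (43.0%) met them in all 27 settings of this kind, which were these, array medians centred again, stage medians in place of means, and slide as a block. Of the 144, 61 averaged over 15 and 8 between 12 and 13.

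The number of probes behind a value was not part of the rule. Of the members, 202 (60.3%) were measured with 4 probes and the rest with 5, against 46.1% of the other abundant transcripts with 4. Between 12 and 13 the shares with 4 probes were alike, at 41.0% of members and 40.4% of the others, and above 15 they were 73.0% and 52.7%. Over the 23 arrays, which share slides and a joint normalization, Pearson's r between members had a median of 0.062 and ran from -0.84 to 0.888, with its 5th percentile at -0.40 and its 95th at 0.52. In 47 of the 55945 pairs r was over 0.8, the highest in FBtr0076032 and FBtr0076423. No chance level was set beside these values, so no shared course of members is read from them. A total of 48 members stood in 25 pairs of consecutive identifiers, whose r had a median of 0.62 and ran from -0.20 to 0.88. Identifiers next to each other can belong to transcripts of 1 gene that share probes, and such members are then not separate measurements.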

How the data were processed

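The authors scanned the arrays with NimbleScan, quantile normalized all of them together and summarised 3 to 5 probes per transcript by RMA, which the submitters' notes also name. In the sources used here, neither RMA's version nor the array's genome build is given. The deposited single-sample files hold linear intensities, and a deposited table holds log2 values of 15469 transcripts, with its 4 L3 columns in each other's place, used as an alternative. Joint normalization hides changes in total RNA. Precision is limited by how many arrays there were.

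Log2 of the intensities was fitted with limma 3.58.1 in R 4.3.3 over 23 arrays. Samples were dissected independently, and p-values refer to the spread between them. 1 incomplete slide number was read as the slide with a free position. Members and lists were chosen with earlier results of these data known. Identifiers were named as the 3 extremes of average, stage range and SD, the 3 on each side of each limit and the 2 largest differences of the pooled array. The tests were also run on simulated data with noise drawn independently for each transcript and array. That setting is simpler than these arrays, and no result here rests on it. The alternatives were other normalizations, limits, stage summaries, blocks and eBayes settings, and each array left out.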

Additional observations from a re-analysis of the deposited data

Results flagged for a closer look

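In each group of 4 samples, the values of 25 members described above, the mean over all members and the share within 0.35 on a left-out array were searched for a sample far from the other 3. Of 135 groups, 13 (9.63%) held a sample whose gap to the nearest other exceeded 0.829 of the group's range, where chance alone flags about 1 in 20.

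For the share, the sample found was 2 h APF sample C, on which 77.2% of the transcripts chosen without it lay within 0.35 of their average, against 95.3% to 98.5% on the other 2 h APF arrays. Of the members, FBtr0081512 read 15.19 on 2 h APF sample E, against 15.56 to 15.59 on the other arrays of the stage. FBtr0087517 was high on 24 h APF sample B (13.61, against 13.13 to 13.21), while that sample was the low one for FBtr0085443 (14.61, against 14.72 to 14.73) and for FBtr0080532 (14.22, against 14.36 to 14.38). FBtr0086678 was high on 18 h APF sample C (15.79, against 15.54 to 15.57) and on 24 h APF sample A (15.82, against 15.65 to 15.68). At L3, FBtr0081639 read 15.53 on sample 2, against 15.69 to 15.71, FBtr0084121 read 12.20 on sample 3, against 12.34 to 12.37, and FBtr0081906 read 13.34 on sample 4, against 13.46 to 13.47. FBtr0081906 also read 13.83 on 24 h APF sample D, against 13.66 to 13.68. FBtr0072287 read 12.09 on 2 h APF sample C, against 11.89 to 11.92, and FBtr0079862 read 14.50 on 18 h APF sample A, against 14.32 to 14.34.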

How the results depend on the processing

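The number of steady abundant transcripts was 335 and stayed within 1.5 times that under all alternatives but a limit of 0.3 in place of 0.35 (219). Without 1 array it was 304 to 378. The identity changed more than the count, since cyclic loess gave 347 transcripts of which 222 were among the 335, and centring the array medians again gave 320 with 269 shared. Of the alternatives added after the data were seen, slide as a block in the stage means gave 355 with 305 shared, and leaving out 18 h APF sample C and 24 h APF sample B gave 336 with 317 shared.

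Counts of members past limma's test against L3 depended on the setting. The main fit gave 8 at 2 h (background 21.4%), 27 at 6 h (42.8%), 8 at 18 h (27.3%), 20 at 24 h (35.3%) and 32 at 36 h APF (60.8%). The share of all transcripts was taken for the main fit only. Whether the changes below are particular to the members or run over the whole array therefore cannot be told. In that order, trended and robust eBayes gave 25, 53, 19, 33 and 54, and slide as a block gave 4, 18, 2, 13 and 20. Cyclic loess gave 51 at 6 h and 83 at 36 h, and centring the medians again gave 16 at 2 h. Without 1 array the counts ran from 5 to 20 at 2 h, 15 to 30 at 6 h, 1 to 11 at 18 h, 10 to 23 at 24 h and 16 to 35 at 36 h. The lowest counts came without 2 h APF sample C or L3 sample 2 or 3 (5 each at 2 h), 6 h APF sample E, L3 sample 3 (18 h), 24 h APF sample A and 36 h APF sample D. The count of 20 came without 2 h APF sample B.

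Over the 19 arrays of 2 to 36 h APF, limma's F test between stages called 19 members (background 69.4%), 79 after cyclic loess, 0 with slide as a block, and 3 to 20 without 1 array, 3 without 6 h APF sample A. With the replicate block it called 5. Here too the background is that of the main fit only, and nothing about the members is read from these changes. Over all transcripts, not only the members, the deviations of same-letter arrays from their stages correlated at -0.55 to 0.36, and 7 of 29 pairs were over 0.1. Their median was 0.0044, against 0.0115 for arrays of different letters. These correlations do not settle whether the letters pair the samples. The slide test with the replicate block could not be fitted, since letters and slides coincide in part. The counts for slide and position were 0 in every setting run. The median difference of the pooled array, -0.054, was -0.067 after cyclic loess and 0.027 with medians centred again. The cause of these shifts was not tested, and signal over background is not given in the files.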
